A study of Mus musculus with 6 samples.

Results

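Iron-handling and siderophore-binding genes were examined in the aorta of mouse fetuses that had or lacked a working copy of Nod1, after exposure to a Nod1 ligand. The set held 10 genes, chosen by name: Lcn2, Hp, Hpx, Cp, Steap4, Slc40a1, Tfrc, Slc11a1, Hamp and Fth1. They were represented by 13 non-control probes among 55681 on the array, which carried 34797 gene names in all. Each of the 10 genes had a probe well above background on all 6 arrays, and all 10 were among the 21477 genes tested.

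The arrays compared Nod1 +/- fetuses (n = 3) with their Nod1 -/- littermates (n = 3), all on the C57BL/6 strain and taken at E18.5, shortly before birth. Nod1 is a cytosolic sensor of peptidoglycan fragments, and FK565 is a synthetic ligand of it. Every dam was Nod1 -/- and had been mated with a Nod1 +/- male, so the ligand met a functional receptor only in the heterozygous fetuses. Each dam received 500 µg FK565 under the skin, and the fetal aortas were collected 6 h later. Both genotypes therefore shared the dam's genotype and the injection. No fetuses of uninjected dams were analysed here, so a difference between genotypes is one seen under the ligand, and the level without it is not known. The labels do not say whether an array holds 1 aorta or pooled ones, or which fetuses shared a litter, so each p-value reflects the spread among these particular samples.

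Iron reaches cells mainly as transferrin taken up by the transferrin receptor, or as free ferrous iron through metal transporters once a reductase has acted on it. It is stored in ferritin and leaves the cell through ferroportin, after which a copper ferroxidase prepares it for transferrin. Hepcidin, a peptide hormone made mostly by the liver, causes ferroportin to be degraded. During infection and inflammation this system shifts towards keeping iron from microbes: liver and myeloid cells make proteins that bind siderophores, haemoglobin or haem, hepcidin rises under interleukin 6, and macrophages hold iron back.

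Levels are given as the log2 of the 1-colour signal minus the 75th percentile of the same array, so 0 marks a probe at that percentile, and levels of different probes are not set against each other. Differences are Nod1 +/- minus Nod1 -/-, with the standard error (SE), the 95% confidence interval and the limma p-value adjusted by Benjamini-Hochberg over all 21477 genes. The 75th percentile signal lay between 371.7 and 439.5 on the 6 arrays, and 48.6% to 58.3% of probes were well above background. All 6 arrays were on 1 slide and carried 1 scan time, and precision is limited by how few they are. The Nod1 probe gave 3.15, 3.20 and 3.78 in Nod1 +/- and 3.20, 3.19 and 3.35 in Nod1 -/- fetuses (difference 0.13, adjusted p = 0.648). It may lie outside the deleted part of the gene, so it does not check the genotype labels. All 8 smooth muscle markers and all 8 endothelial markers were detected, which does not tell aorta from other tissue with vessels. The summed smooth muscle signal was 10.02 to 10.11 in Nod1 +/- and 10.06 to 10.14 in Nod1 -/- arrays. The endothelial sum overlapped too, at 6.82 to 7.10 against 6.97 to 7.37. The sums of fibroblast (9.90 to 9.94 against 10.11 to 10.17) and Schwann cell markers (2.25 to 2.53 against 3.24 to 3.75) did not overlap. Nor did that of red cell markers (9.88 to 10.26 against 10.32 to 10.47). Hepatocyte and fat transcripts were detected too, as given below. At an adjusted p under 0.05, 1 of the 8 smooth muscle markers was higher in Nod1 +/- aortas, and 2 of 8 endothelial, 2 of 7 fibroblast and 2 of 5 Schwann cell markers were lower. Beside these and the marker lists below, 7.66% of all genes were higher and 11.0% lower.

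Of the 10 iron-handling genes, 4 were higher in Nod1 +/- aortas (Lcn2, Hp, Cp and Steap4) and 1 was lower (Slc40a1) at an adjusted p under 0.05. Across all genes tested, 18.7% passed this threshold, 7.66% as higher and 11.0% as lower. All 5 changed at least 2-fold, a size that 5.60% of all genes reached together with the threshold. The median difference of the 10 genes was 1.29, with extremes of -1.54 and 3.46, against -0.10 for all genes. These genes and the gene lists were chosen with earlier results of these data known, so comparisons with all genes are descriptive only. The genotypes did not overlap in 7 of the 10 genes, 5 higher and 2 lower, as in 42.4% of all genes (16.3% higher and 26.1% lower). The remaining 5 genes, Hpx, Hamp, Fth1, Tfrc and Slc11a1, did not pass the test.

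**Figure D1:**
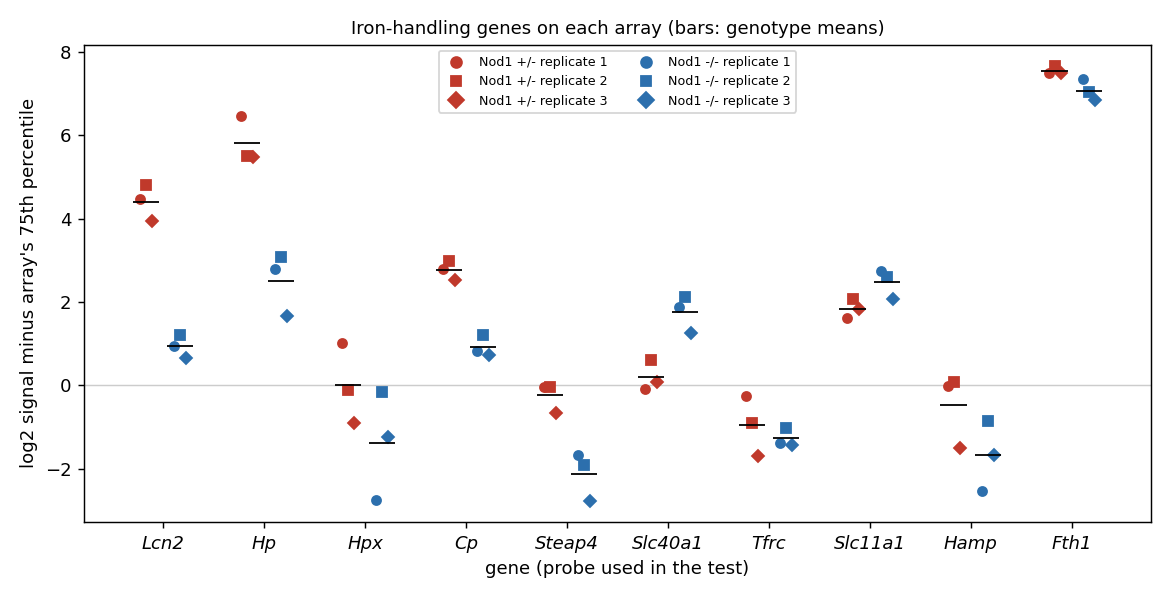
Level of each iron-handling gene on each of the 6 arrays, as log2 signal minus the array's 75th percentile (y axis), for 3 Nod1 +/- (red) and 3 Nod1 -/- (blue) arrays with a bar at each genotype's mean. Lcn2 sits between 3.93 and 4.81 in Nod1 +/- and between 0.65 and 1.21 in Nod1 -/- arrays, while the Hpx, Tfrc and Hamp points of the 2 genotypes overlap.

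Promoter sequences are shown for 4 genes: Lcn2, Cp and Steap4, which rose, and Hamp, the best-known target of interleukin 6 among them. They come from RefSeq on GRCm38.p6 and run from 250 bases before to 50 bases after the annotated start, on the gene's strand. Capitals mark matches to the NF-kB letters (GGG, any 5 bases, CC) or the STAT letters TTCNNNGAA, read on both strands, and the matches of these motifs do not overlap each other. NF-kB is the transcription factor that Nod1 signalling activates through the kinase Ripk2, and STAT3 carries the interleukin 6 signal. For Cp, which has 2 listed starts, the second is shown, since the first held neither motif.
Lcn2, chr2:32387690-32387989, minus strand: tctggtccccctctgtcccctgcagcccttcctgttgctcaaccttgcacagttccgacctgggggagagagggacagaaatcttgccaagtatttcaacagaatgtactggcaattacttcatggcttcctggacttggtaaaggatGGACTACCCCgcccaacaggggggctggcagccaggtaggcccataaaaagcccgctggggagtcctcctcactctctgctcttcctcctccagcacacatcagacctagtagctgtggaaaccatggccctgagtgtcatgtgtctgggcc
Cp, second start, chr3:19956999-19957298, plus strand: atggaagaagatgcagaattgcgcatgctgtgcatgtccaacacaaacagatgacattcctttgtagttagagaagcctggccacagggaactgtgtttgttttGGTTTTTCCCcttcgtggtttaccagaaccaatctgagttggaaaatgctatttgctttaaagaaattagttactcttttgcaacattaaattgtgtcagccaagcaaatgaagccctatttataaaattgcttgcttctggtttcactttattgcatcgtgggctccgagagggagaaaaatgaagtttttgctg
Steap4, chr5:7960222-7960521, plus strand: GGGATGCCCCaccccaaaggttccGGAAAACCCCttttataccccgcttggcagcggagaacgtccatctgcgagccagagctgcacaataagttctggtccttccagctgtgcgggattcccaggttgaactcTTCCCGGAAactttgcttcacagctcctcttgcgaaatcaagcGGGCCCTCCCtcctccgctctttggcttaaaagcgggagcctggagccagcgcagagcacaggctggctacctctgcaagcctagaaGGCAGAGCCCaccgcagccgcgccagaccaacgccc
Hamp, chr7:30943980-30944279, minus strand: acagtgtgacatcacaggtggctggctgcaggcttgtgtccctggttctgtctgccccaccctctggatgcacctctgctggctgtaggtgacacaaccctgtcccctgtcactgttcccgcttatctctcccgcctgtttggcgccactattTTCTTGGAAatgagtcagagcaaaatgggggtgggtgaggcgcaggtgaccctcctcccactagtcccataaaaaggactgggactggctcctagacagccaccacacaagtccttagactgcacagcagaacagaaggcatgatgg
The NF-kB match of Lcn2 begins at position -102 from the start and that of Cp at -146. Steap4 holds NF-kB letters at 4 positions, -250, -226, -73 and 15, and STAT letters at -116. Hamp holds STAT letters at -97. Promoters were listed for 8 of the 10 genes (11 promoters, not Hp or Slc40a1). NF-kB letters were in 5 of these 8 genes and 7 of the 11 promoters, where 50.8% of 32851 mouse promoters hold them. Besides Lcn2, Cp and Steap4, these genes were Tfrc and Fth1, which did not pass the test. Tfrc and Fth1 hold the letters at both of their listed starts. STAT letters were in 2 of the 8 genes, Steap4 and Hamp, where 8.3% of promoters hold them. The C/EBP letters TTGCNNAA are those of a factor family that drives acute-phase genes. They were in Lcn2, Cp and Steap4, and in Hpx and Fth1, which did not pass the test. That is 5 of the 8 genes and 5 of the 11 promoters, where 10.8% of promoters hold the letters. Among the sequences shown they begin at -216 in Lcn2, -70 in Cp and -87 in Steap4, outside the capitals. Of the other motifs searched on both strands, the antioxidant element TGACNNNGC was in 1 gene (12.4% of promoters) and the hypoxia letters TACGTG were in 1 (3.23%) and GACGTG in 0 (6.38%). The loop letters of an iron-responsive element, CAGTGN on the gene strand, were in 3 (34.6%), Hpx, Slc11a1 and Hamp. Those of Slc11a1 and Hamp lie before the annotated start, outside the transcript, and Hpx has 1 match before the start and 1 after it. Since the element belongs to the transcript, this count does not show which genes carry it. Matches to any of these motifs are letters in a window and say nothing of whether a factor was bound.

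Lcn2 had the largest difference of the 10 genes. It encodes lipocalin 2, a secreted protein of neutrophils and inflamed epithelia that binds bacterial siderophores. Its signals were 9099.8, 12198.5 and 5679.3 in Nod1 +/- and 758.9, 1017.8 and 645.9 in Nod1 -/- arrays. On the log2 scale these were 4.46, 4.81 and 3.93 against 0.95, 1.21 and 0.65, or 4.40 ± 0.44 against 0.94 ± 0.28 (SD, n = 3). All 3 Nod1 +/- arrays were far above the highest Nod1 -/- array, and the gap between them exceeded the whole range of either genotype. The difference of 3.46 (SE 0.26, interval 2.84 to 4.08) equals 11.0-fold, with an adjusted p of 0.00128. The probe is at chr2:32240199-32240258 on the minus strand in the mm9 build that the files use.

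Neutrophil transcripts moved with Lcn2. Of 13 neutrophil markers 12 were tested: 7 were higher in Nod1 +/- aortas, 0 were lower by limma (also 0 at an unadjusted p under 0.05), and the median difference was 2.57. Prtn3 was not above background on enough arrays to be tested. Their summed signal was 8.11, 8.21 and 8.12 on the Nod1 +/- arrays and 7.44, 7.31 and 7.74 on the Nod1 -/- arrays. The brightest marker, the granulocyte growth factor receptor Csf3r, takes most of the sum on the Nod1 -/- arrays and differed by -0.44 (adjusted p = 0.218). Without Csf3r, a sum added after its values were seen, the other 11 markers gave 7.27, 7.69 and 6.99 against 4.13, 4.53 and 4.31, so the genotypes lay far apart. S100a9, a subunit of calprotectin, rose by 3.17 (adjusted p = 0.000822). The other called markers, named here after their values were seen, were S100a8 (3.21), Retnlg (3.82), Mmp8 (3.16), Ltf (2.98), Ngp (2.16) and the chemokine receptor Cxcr2. Cxcr2 did not clear background on the Nod1 -/- arrays, so its rise of at least 12.4-fold (adjusted p = 0.00376) is a bound, taken against the higher of its own signal and the lowest signal of a probe well above background on each array. The values of 3 markers that did not pass were 0.89 for the surface marker Ly6g (adjusted p = 0.101), 0.29 for the granule enzyme Mpo (0.705) and 0.22 for neutrophil elastase, Elane (0.499). The part of neutrophil number in the Lcn2 difference was not tested, and in whole aorta, here and below, more or fewer cells of a type cannot be told apart from more or less RNA per cell. Over the 6 arrays, the 3 genes whose centred profiles were nearest to that of Lcn2 among 12552 candidates were Stfa2l1, Stfa2 and S100a8, with root mean square distances of 0.15, 0.17 and 0.18 log2 units.

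Hp and Hpx encode plasma scavengers that the liver secretes in the acute phase, and only Hp passed the test. Hp makes haptoglobin, which binds free haemoglobin and is also stored in neutrophil granules. Its probe, at chr8:112099045-112099104 on the minus strand, gave 6.45, 5.50 and 5.48 in Nod1 +/- and 2.78, 3.08 and 1.66 in Nod1 -/- arrays. The lowest Nod1 +/- array was well above the highest Nod1 -/- array, and the third Nod1 -/- array was the lowest of all. The means were 5.81 ± 0.56 and 2.51 ± 0.75 (SD, n = 3), a difference of 3.30 (SE 0.44, interval 2.24 to 4.37) or 9.87-fold, with an adjusted p of 0.00668. The nearest profiles to Hp were those of AW112010, Tgtp2 and Slc15a3, at 0.29, 0.32 and 0.37 log2 units, farther off than the neighbours of Lcn2.

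Hpx makes hemopexin, which binds free haem. Its probe (chr7:112740304-112740363, minus strand) gave 1.02, -0.12 and -0.89 in Nod1 +/- and -2.75, -0.16 and -1.24 in Nod1 -/- arrays. The genotypes overlapped, and the arrays of 1 genotype spread over more than the difference between the means. That difference was 1.38 (SE 0.75, interval -0.45 to 3.22, adjusted p = 0.241), so neither no change nor a large rise lies outside the interval.

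The spread of Hpx ran alongside hepatocyte transcripts. Of 11 hepatocyte markers 10 were on the array and tested, with 0 called in either direction by limma, 0 at an unadjusted p under 0.05, and a median difference of -0.09. Their summed signal varied between arrays of 1 genotype: 6.63, 6.15 and 5.04 in Nod1 +/- and 4.23, 7.37 and 6.28 in Nod1 -/-. Alb, the gene of albumin, followed the same order, with 4.13, 3.39 and 2.12 against 1.17, 4.84 and 3.36 (difference 0.09, adjusted p = 0.956). The differences of the fetal liver protein Afp and of transthyretin, Ttr, were -0.23 (adjusted p = 0.889) and -0.26 (0.870). Within each genotype the arrays ranked the same way by Hpx as by this sum.

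Hamp, which encodes hepcidin, gave -0.02, 0.09 and -1.49 in Nod1 +/- and -2.52, -0.86 and -1.66 in Nod1 -/- arrays (probe at chr7:31727490-31727549, minus strand). The genotypes overlapped here as well, with the third Nod1 +/- array below the second Nod1 -/- array. The difference was 1.21 (SE 0.57, interval -0.17 to 2.58, adjusted p = 0.184). Hamp was lowest on the third Nod1 +/- and the first Nod1 -/- arrays, which had the least hepatocyte signal of their genotypes. With the Alb level of each array as a covariate, a fit added after seeing the data, Hpx was 1.32 (adjusted p = 0.0155) and Hamp 1.16 (adjusted p = 0.0458). The same fit gave 3.29 for Hp (adjusted p = 0.0155), 3.45 for Lcn2 (0.00416) and 1.84 for Cp (0.00513). Of the 22 alternatives it was the only 1 in which Hpx or Hamp passed the threshold. Without both first arrays Hpx was 0.19 (adjusted p = 0.828) and Hamp 0.56 (0.604). The part of liver RNA in these differences was not tested. 

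**Figure D2:**
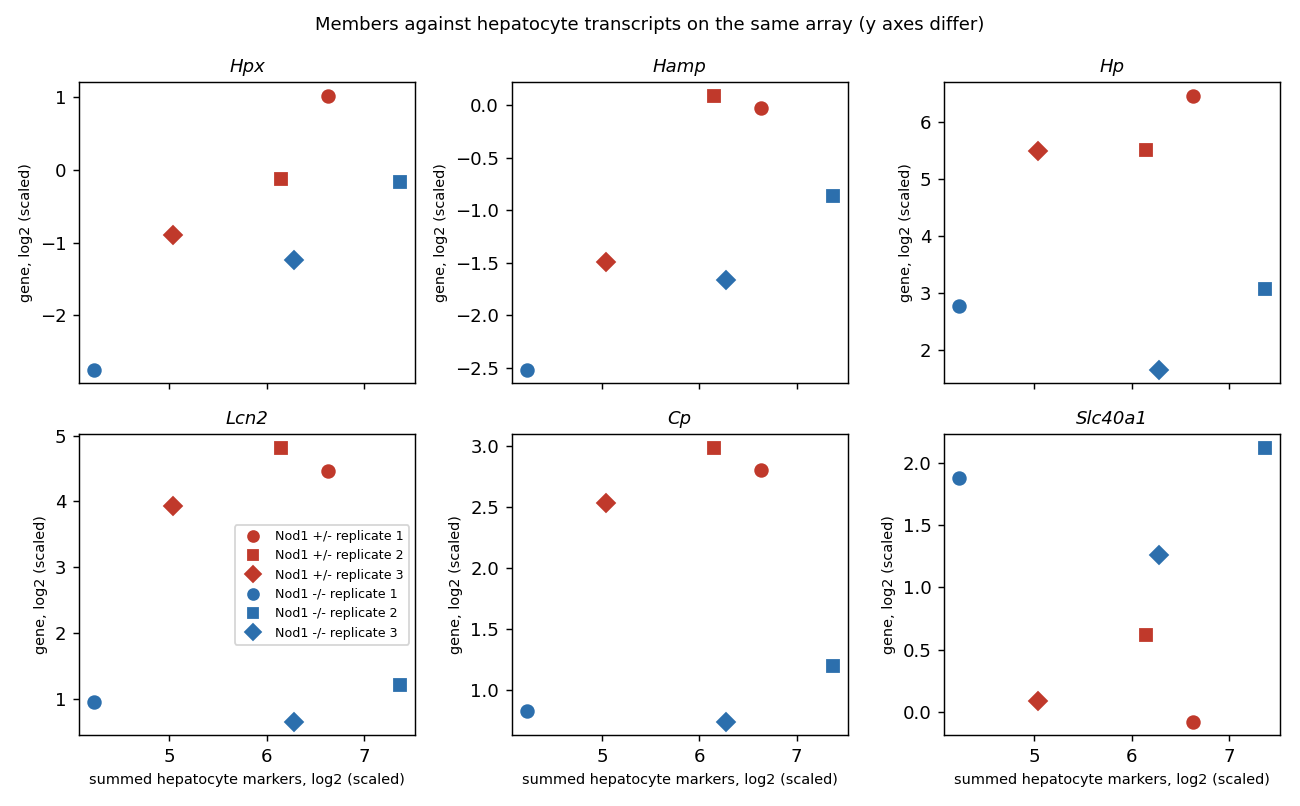
Level of 6 iron-handling genes (y axes, log2 signal minus the array's 75th percentile) against the summed signal of the hepatocyte markers on the same array (x axis, same scale), for 3 Nod1 +/- (red) and 3 Nod1 -/- (blue) arrays. Hpx and Hamp are lowest on the Nod1 -/- array with the least hepatocyte signal (4.23), and Lcn2, Hp and Cp separate by genotype. The Nod1 +/- arrays cover only 5.04 to 6.63 on the x axis, and the Nod1 -/- arrays 4.23 to 7.37.

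Cp and Steap4 act on the oxidation state of iron, and both rose. Cp encodes ceruloplasmin, a copper ferroxidase that is secreted by the liver or held on the cell surface and helps ferroportin release iron. The probe used (chr3:19889071-19889130, plus strand) gave 2.80, 2.98 and 2.53 in Nod1 +/- and 0.83, 1.20 and 0.74 in Nod1 -/- arrays. Both genotypes were tight, and the gap between them exceeded the whole range of either. The means were 2.77 ± 0.23 and 0.92 ± 0.25 (SD, n = 3), a difference of 1.85 (SE 0.18, interval 1.43 to 2.28) or 3.61-fold, with an adjusted p of 0.0024. A second, dimmer Cp probe, at chr3:19907511-19907570, also separated the genotypes, with -1.91, -1.57 and -1.72 against -3.21, -3.33 and -3.30. Its difference of 1.55 (SE 0.12) equals 2.93-fold, with a limma p of 0.00171 adjusted over all kept probes. The profiles nearest to that of Cp were Stx11, Timp1 and Rrp12, at 0.10, 0.12 and 0.13 log2 units.

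Steap4 encodes a metalloreductase of endosomes and the cell surface that reduces ferric iron and cupric copper. Its levels were -0.03, -0.03 and -0.65 in Nod1 +/- and -1.67, -1.92 and -2.76 in Nod1 -/- arrays (probe at chr5:7981239-7981298, plus strand). All Nod1 +/- arrays were above all Nod1 -/- arrays, and the third array was the lowest of its genotype in both. The means were -0.24 ± 0.36 and -2.12 ± 0.57 (SD, n = 3), a difference of 1.88 (SE 0.32, interval 1.10 to 2.67) or 3.69-fold, with an adjusted p of 0.014. Without the second Nod1 -/- array the difference was 1.98, with an adjusted p of 0.0513. Steap4 is also strongly expressed in fat. The 6 fat markers tested had 0 calls in either direction by limma, 0 also at an unadjusted p under 0.05, and a median difference of 0.15, with Lep and Ucp1 not above background. The summed fat signal was 6.94, 6.60 and 6.47 in Nod1 +/- and 6.96, 6.86 and 5.93 in Nod1 -/- arrays. Adipoq, the adiponectin gene, gave 3.55, 2.93 and 2.33 against 3.84, 3.76 and 0.66, a difference of 0.18 (adjusted p = 0.899). With the Adipoq level as a covariate, a fit added after seeing the data, Steap4 differed by 1.82 (adjusted p = 0.00455). The third Nod1 -/- array was the lowest both for Steap4 (-2.76) and for the fat sum (5.93). The part of fat RNA in the Steap4 difference was not tested. The nearest profiles were Ccl9, Serpina3c and Sirpb1b, at 0.12, 0.16 and 0.18 log2 units.

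**Figure D3:**
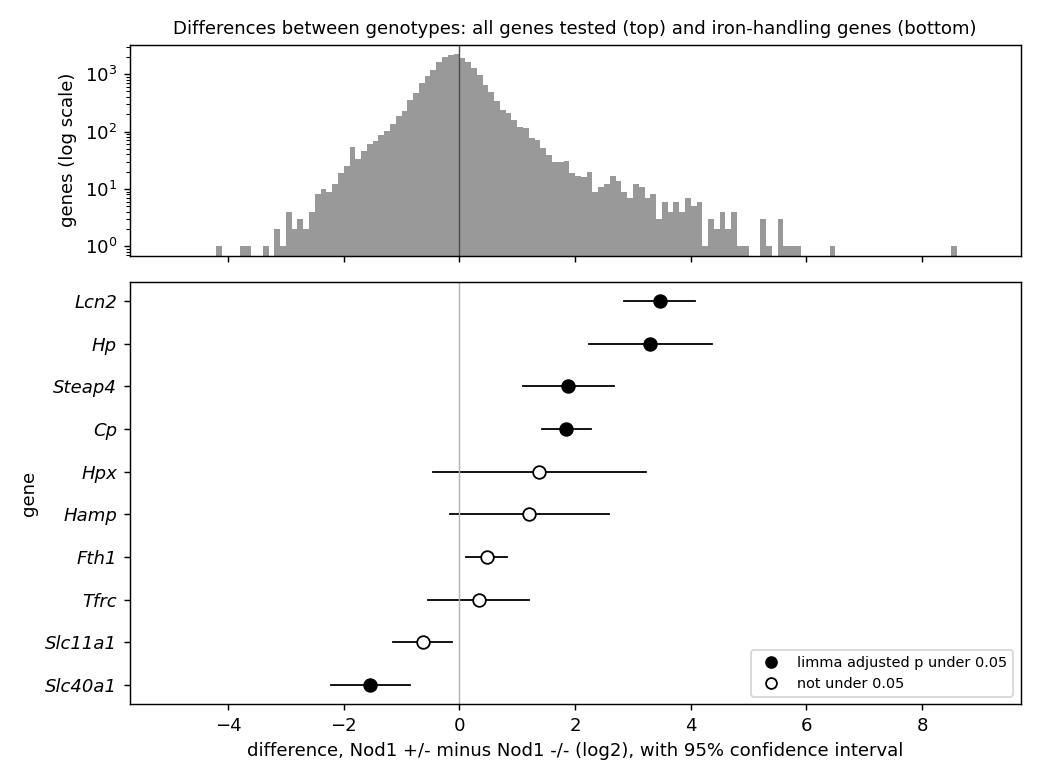
Differences between genotypes on the log2 scale (x axis, Nod1 +/- minus Nod1 -/-), with the histogram of all 21477 genes above (y axis on a log scale) and the 10 iron-handling genes below with 95% confidence intervals, filled where the limma adjusted p was under 0.05. Lcn2 (3.46), Hp (3.30), Steap4 (1.88) and Cp (1.85) lie on the right, Slc40a1 (-1.54) on the left, and the intervals of Hpx, Hamp and Tfrc cross 0.

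The exporter moved the other way. Slc40a1 encodes ferroportin, the known iron exporter of mammalian cells, which is abundant in macrophages that recycle red cells. Its probe (chr1:45965255-45965314, minus strand) gave -0.08, 0.62 and 0.09 in Nod1 +/- and 1.88, 2.12 and 1.26 in Nod1 -/- arrays. Every Nod1 +/- array was below every Nod1 -/- array, with the third Nod1 -/- array the nearest to the heterozygotes. The means were 0.21 ± 0.36 and 1.75 ± 0.44 (SD, n = 3), a difference of -1.54 (SE 0.28, interval -2.22 to -0.86), or 2.91-fold lower, with an adjusted p of 0.0162. The call rests on the number of arrays: the adjusted p was 0.0509 without the first Nod1 +/- array, 0.0577 without the first Nod1 -/- array and 0.0624 without the second Nod1 -/- array, with differences of -1.40, -1.48 and -1.36. With the slide row of the arrays in the fit it was -1.05 (adjusted p = 0.124). The nearest profiles were Cytl1, Htr2b and Omd, at 0.09, 0.12 and 0.15 log2 units.

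Slc11a1 encodes Nramp1, which moves iron and other divalent metals out of the phagosome of macrophages and neutrophils. It gave 1.62, 2.06 and 1.84 in Nod1 +/- and 2.75, 2.60 and 2.07 in Nod1 -/- arrays (probe at chr1:74432161-74432220, plus strand). The genotypes did not overlap, but the third Nod1 -/- array was almost level with the second Nod1 +/- array. The difference of -0.63 (SE 0.21, interval -1.15 to -0.12) had an adjusted p of 0.0879. Without the third Nod1 -/- array the difference was -0.84, with an adjusted p of 0.0353. It was -0.52 (0.211) without the first Nod1 +/- array, -0.50 (0.218) without the first Nod1 -/- array and -0.38 (0.405) without both. With the slide row of the arrays in the fit it was -0.23 (adjusted p = 0.559).

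Macrophage transcripts did not all move the same way. Of 11 macrophage markers tested, 3 were lower in Nod1 +/- aortas and 0 higher by limma (1 at an unadjusted p under 0.05), with a median difference of -0.38. Of all genes, 11.0% were lower and 7.66% higher. In this list 3 differences were positive, the largest that of Mrc1 at 0.58 (adjusted p = 0.117, genotypes not overlapping). Emr1, Cd68, C1qa, C1qb and C1qc had no call, at -0.38, 0.13, -0.41, -0.11 and -0.31. Their summed signal was 6.28, 6.38 and 6.12 in Nod1 +/- and 7.09, 6.74 and 6.18 in Nod1 -/- arrays. The third Nod1 -/- array, lowest of its genotype for Slc40a1 and Slc11a1, was also the lowest for this sum. Csf1r, the receptor that macrophages need to survive, fell by 0.96 (adjusted p = 0.0295), although 2 dimmer Csf1r probes gave -0.73 and -0.31 (0.169 and 0.14 over all probes). The other lower calls, named here after their values were seen, were Cx3cr1, the fractalkine receptor, at -2.05 (adjusted p = 0.00446) and Spic, a transcription factor of iron-recycling macrophages, which did not clear background in the heterozygotes and fell by a bound of at least 1.77-fold (0.0263). The haemoglobin scavenger receptor Cd163 differed by 0.42 (adjusted p = 0.173). The part of macrophage RNA in the Slc40a1 and Slc11a1 differences was not tested.

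Neither Tfrc nor Fth1, the textbook pair of transcripts under the iron regulatory proteins, passed the test. Tfrc encodes the transferrin receptor, whose transcript is stabilised when cells are short of iron. It gave -0.25, -0.89 and -1.69 in Nod1 +/- and -1.38, -1.02 and -1.42 in Nod1 -/- arrays (probe at chr16:32632255-32632314, plus strand, the mean of 10 spots). The Nod1 +/- arrays spanned the whole Nod1 -/- range and beyond it on both sides. The difference was 0.33 (SE 0.36, interval -0.54 to 1.21, adjusted p = 0.544), and it was -0.02 without the first Nod1 +/- array. A second probe, at chr16:32620470-32620529, gave 0.51 (adjusted p over all kept probes 0.164), and another was not above background on any array. Tfrc is abundant in maturing red cells. The 8 red cell markers tested had 1 lower call and 0 higher by limma (0 at an unadjusted p under 0.05), with a median of -0.59, and Klf1 and Rhag were not above background. Among these markers, Hbb-b1, a beta globin, differed by -0.42 (adjusted p = 0.109) and Alas2, the red cell enzyme that starts haem synthesis, by -0.67 (0.147).

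Fth1 encodes the ferritin heavy chain, the ferroxidase subunit of the iron storage shell. Its probe (chr19:10059485-10059544, plus strand) gave 7.50, 7.65 and 7.48 in Nod1 +/- and 7.34, 7.03 and 6.85 in Nod1 -/- arrays. The genotypes did not overlap, yet the difference was small: 0.47 (SE 0.15, interval 0.11 to 0.83, adjusted p = 0.0768). Ferritin heavy chain has processed pseudogenes whose transcripts the probe could also bind, so its identity is uncertain. The call changed under other processing, since the difference was 0.55 (adjusted p = 0.0498) with quantile scaling and 0.56 (0.0473) in the authors' deposited value table.

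The wider set of iron genes held calls in both directions. Of 56 other listed iron genes, 53 were on the array and 50 were tested: 9 (18%) were higher in Nod1 +/- aortas and 12 (24%) lower, against 7.66% and 11.0% of all genes, and the median difference was -0.08 against -0.10 for all genes. The lower calls depend on scaling and on single arrays. Scaling to the median of each array, which moves the median difference of all genes from -0.10 to 0.01, gave 9 higher and 4 lower. Without the first, the second or the third Nod1 +/- array 5, 4 and 7 were lower, and without the first or second Nod1 -/- array 6 and 4. The 3 genes Ftmt, Hfe2 and Fam132b were not kept because their probes were too dim.

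Among genes of iron uptake and reduction, 5 of 10 were higher and 3 lower, against 7.66% and 11.0% of all genes, with a median of 0.64. Steap1, a relative of Steap4, gave -0.41, 0.82 and -0.43 in Nod1 +/- and -2.71, -2.31 and -2.98 in Nod1 -/- arrays, so that all heterozygotes lay above all knockouts. Its difference was 2.66, or 6.32-fold (adjusted p = 0.00805), and 1.88 (0.00482) with normexp background correction. Steap3, the ferrireductase of transferrin endosomes in red cell precursors, rose by 0.84 (adjusted p = 0.0174), but a second probe gave 0.25 (0.226 over all probes), and without the first or second Nod1 +/- array its adjusted p was 0.054 and 0.0522. Slc39a14, or Zip14, an importer of non-transferrin iron, gave 1.43, 1.39 and 1.59 against 0.06, 0.45 and 0.50. Its difference was 1.13 or 2.20-fold (adjusted p = 0.00613). Also called in this list, and named after their values were seen, were Slc39a8 and Scara5. Slc39a8 rose by 1.24 (adjusted p = 0.0488) and Scara5 fell by 0.82 (0.0382). Slc11a2, or DMT1, rose by 0.74 (adjusted p = 0.0104), and its second, dimmer probe gave 1.26 (0.0925 over all probes).

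The reductase and ferroxidase best known from the gut lining fell. Cybrd1, a ferrireductase, gave -3.36, -3.25 and -2.58 in Nod1 +/- and -1.44, -1.41 and -1.05 in Nod1 -/- arrays, a difference of -1.76 or 3.39-fold lower (adjusted p = 0.00668). With normexp background correction it was -1.01 (adjusted p = 0.0038). A second Cybrd1 probe overlapped between genotypes, at -0.60 (0.417 over all probes). Heph, or hephaestin, the membrane-bound relative of ceruloplasmin, gave 1.73, 1.87 and 1.79 against 2.43, 2.73 and 2.43 and fell by 0.73 (adjusted p = 0.0121). Ceruloplasmin and hephaestin thus differed in opposite directions in the same samples. Transferrin itself, Trf, differed by -0.31 (adjusted p = 0.49).

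**Figure D4:**
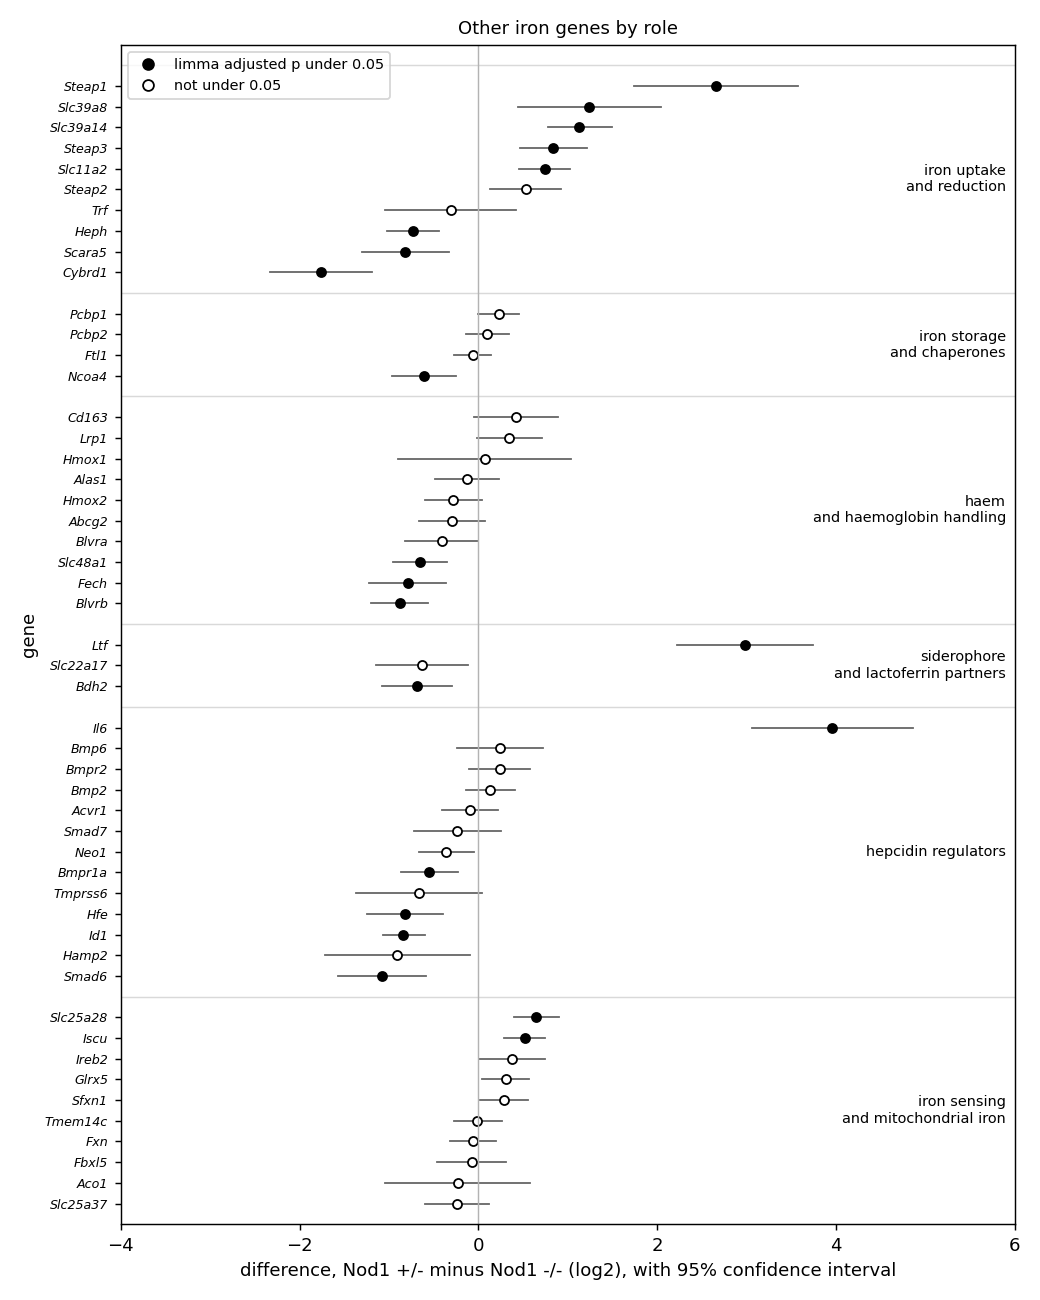
Differences between genotypes (x axis, log2, Nod1 +/- minus Nod1 -/-, with 95% confidence intervals) of the 50 other iron genes tested (y axis), grouped by role, with filled points where the limma adjusted p was under 0.05. Il6 (3.96), Ltf (2.98) and Steap1 (2.66) lie farthest to the right and Cybrd1 (-1.76) farthest to the left, and 21 of the 50 points are filled.

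Partners in binding siderophores and iron included Ltf, lactoferrin, an iron-binding protein of neutrophil secondary granules. It gave 2.34, 2.59 and 1.65 in Nod1 +/- and -1.28, -0.59 and -0.49 in Nod1 -/- arrays. The genotypes lay far apart, by 2.98 or 7.88-fold (adjusted p = 0.00318), and Ltf is itself 1 of the neutrophil markers above. Slc22a17, reported as a receptor for lipocalin 2, gave 3.14, 3.29 and 3.90 against 4.07, 3.98 and 4.20. It was lower on each Nod1 +/- array than on any Nod1 -/- array, but its difference of -0.63 did not pass the test (adjusted p = 0.087). The 3 tested genes of this list had 1 higher and 1 lower call and a median of -0.63.

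Among regulators of hepcidin, Il6 was the only higher call. Il6, the inflammatory inducer of hepcidin, gave -0.39, 0.61 and -0.56 in Nod1 +/- and -4.20, -3.57 and -4.45 in Nod1 -/- arrays, where it was above background on only 2 of 3 arrays. The difference was 3.96, or 15.6-fold (adjusted p = 0.00238). With normexp background correction it was 2.32 (adjusted p = 0.00101). Id1, a BMP target gene, gave 3.01, 3.20 and 3.06 against 3.91, 3.96 and 3.92 and fell by 0.84 (adjusted p = 0.00422). Smad6, a BMP target and feedback inhibitor, gave 0.07, 0.16 and 0.74 against 1.26, 1.36 and 1.58 and fell by 1.08 (adjusted p = 0.018), but its adjusted p was 0.0531, 0.0585 and 0.0672 without the first Nod1 +/-, second Nod1 +/- or second Nod1 -/- array. Bmp6, the iron-regulated BMP of liver endothelium, differed by 0.24 (adjusted p = 0.423). In all, 1 of 13 hepcidin regulators was higher and 4 were lower, with a median of -0.36. Of all genes 7.66% were higher and 11.0% lower, so the 1 higher call is about the share of all genes. The second mouse hepcidin gene, Hamp2, gave -4.15, -4.23 and -5.20 in Nod1 +/- and -3.97, -3.21 and -3.67 in Nod1 -/- arrays. It was above background on all 3 Nod1 -/- arrays but on none of the Nod1 +/- arrays. The lowest signal of a probe well above background differed too, at -3.70 on the first Nod1 +/- and -4.69 on the first Nod1 -/- array. As a bound, Hamp2 was at least 1.39-fold lower in Nod1 +/- aortas, and it did not pass the test (adjusted p = 0.111).

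Haem genes were lower where they differed: 3 of 10 were lower and 0 higher by limma (0 at an unadjusted p under 0.05), with a median of -0.29. Beside this and the lists that follow, 11.0% of all genes were lower and 7.66% higher. Blvrb, biliverdin reductase B, fell by 0.88 (adjusted p = 0.00921), and Slc48a1, a haem transporter of lysosomes, fell by 0.65 (adjusted p = 0.0181). The Slc48a1 call was lost without the first Nod1 +/-, second Nod1 +/- or second Nod1 -/- array, at adjusted p-values of 0.0553, 0.0559 and 0.0742. Hmox1, the inducible haem oxygenase that frees iron from haem, gave 2.85, 3.16 and 2.37 against 2.95, 3.33 and 1.89. Its genotypes overlapped, at 0.07 (interval -0.90 to 1.04, adjusted p = 0.917). In storage, 1 of 4 tested genes was lower and 0 higher by limma (1 at an unadjusted p under 0.05), and the ferritin light chain Ftl1 differed by -0.06 (interval -0.27 to 0.14, adjusted p = 0.629). Of 10 genes of iron sensing and mitochondrial iron, 2 were higher and 0 lower by limma (0 at an unadjusted p under 0.05). These were Slc25a28, a mitochondrial iron carrier also called mitoferrin 2, at 0.65 (adjusted p = 0.0111), and Iscu, the scaffold on which iron-sulphur clusters are built, at 0.52 (0.0165). The Slc25a28 call was lost without the second Nod1 -/- array (adjusted p = 0.0518). The Iscu call was lost without the first Nod1 +/-, second Nod1 +/- or first Nod1 -/- array (0.0631, 0.0584 and 0.066).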

How the data were processed

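Total RNA of 6 fetal aorta samples was labelled with Cy3 and hybridised to 1-colour Agilent arrays, per the labels. The deposited files hold scanner intensity per spot, and the processed signal used here is background-subtracted, per the file headers. These name Agilent Feature Extraction 10.7.1.1, where the submitters' processing notes name 9.5.1.1. Probe positions are on mm9 as in the files. The authors' deposited value table holds linear intensity values whose columns share 1 distribution. Its method is not given in the sources used here, and it served as an alternative.

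Spots of a probe were averaged, log2 values were scaled to each array's 75th percentile, and a probe was kept if well above background on at least 3 of 6 arrays. Each gene was represented by its brightest kept probe. Genotypes were compared with limma 3.58.1 in R 4.3.3 (lmFit, eBayes), with Benjamini-Hochberg adjustment over 21477 genes and a threshold of 0.05, and the code was tested on simulated data. No covariate was used, and 22 alternatives were fitted. Summed marker signals add the linear signals before taking log2. The members and all gene lists were chosen with earlier results of these data known, and no p was adjusted over a list. Named genes were all members, the 14 other iron genes with the smallest p among those called, and fixed reference genes of each list. Nearest profiles are the 3 genes with the smallest root mean square distance after centring each gene over the 6 arrays. Motifs were searched in RefSeq promoters.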

Additional observations from a re-analysis of the deposited data

How the results depend on the processing

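Lcn2 and Cp kept direction and call in all 22 alternatives, with differences of 3.26 to 3.75 and 1.70 to 2.03, and so did Il6 (2.32 to 4.34, lowest with normexp background correction) and Ltf (2.65 to 3.25). No result that passed the test changed direction. Without both first arrays, 2 members were higher and 0 lower (1 at an unadjusted p under 0.05 by limma), Hp was 3.12 (adjusted p = 0.0508), Steap4 2.01 (0.0685) and Slc40a1 -1.33 (0.132). In that fit 2 other iron genes were higher and 0 lower (14 at an unadjusted p under 0.05). Leaving out 1 array at a time gave 3 to 4 members higher and 0 to 2 lower, and 6 to 9 other iron genes higher and 4 to 11 lower. With the slide row as a block, 0 members were lower by limma (1 at an unadjusted p under 0.05), and 2 other iron genes were higher and 2 lower, with Hp at 4.15, Steap4 at 2.53, Steap1 at an adjusted p of 0.0542 and Slc39a14 at 0.0664. In that fit 1 row holds all Nod1 +/- arrays and the third Nod1 -/- array, and the other row the remaining Nod1 -/- arrays. Array weights gave 2 members lower, adding Slc11a1 at -0.80 (0.0283). Median scaling and the lack of a filter on dim probes each gave 4 other iron genes lower, and without the filter 6 were higher. With the Alb level as a covariate, 6 members were higher. The replicate block left 4 members higher and 1 lower, with 8 and 10 other iron genes. Deviations of same-numbered arrays correlated at 0.08, 0.28 and 0.11, and the third Nod1 +/- array correlated best with the first Nod1 -/- array (0.13), so the numbers were not taken as pairs. Low signals, as for Il6 and Hamp2 near background, limit what their differences show.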
